A study of Mus musculus with 4 samples.

Results

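The genes described here are 10 genes of antigen presentation on major histocompatibility complex (MHC) class I, taken by symbol from the 31054 features that all 4 libraries share: H2-K1, H2-D1, B2m, H2-T23, Tap1, Tap2, Tapbp, Psmb8, Psmb9 and Nlrc5. All 10 symbols were found, each in 1 row of the feature list. The libraries are single-cell RNA profiles of lung from male C57BL/6 mice that were 19 months old and then received, for 1 month, either BPTES, a small-molecule inhibitor of the glutaminase GLS1, or its vehicle DMSO. Each group had 2 libraries, and each library mixed 20000 sorted CD45-negative with 9000 sorted CD45-positive cells, so the sort set the balance of CD45-positive and CD45-negative cells (clusters expressing CD45 made up 28.1% to 30.3% of the kept cells); numbers of a class within either fraction were not set by it. The labels do not say whether the 2 libraries of a group came from separate animals, so p-values measure only the spread between these libraries.

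MHC class I displays peptides from inside the cell to CD8 T cells and natural killer (NK) cells. The proteasome cuts proteins into peptides, the TAP1 and TAP2 transporter carries them into the endoplasmic reticulum, and tapasin (Tapbp) helps load them onto a heavy chain paired with beta-2-microglobulin (B2m). H2-K1 and H2-D1 encode the classical heavy chains of this strain, and H2-T23 encodes Qa-1, a non-classical heavy chain read by NK receptors. Psmb8 and Psmb9 are catalytic subunits of the immunoproteasome, which interferon induces in place of the constitutive subunits Psmb5 and Psmb6. Nlrc5 is the class I transactivator, which acts at the promoters of several of these genes.

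In the reference annotation (GENCODE M21, GRCm38) 8 of the 10 genes lie on chromosome 17. Tapbp (ENSMUSG00000024308) occupies chr17:33915899-33929292 and H2-K1 (ENSMUSG00000061232) chr17:33996017-34000347. Psmb9 (ENSMUSG00000096727, chr17:34181987-34187764), Tap1 (ENSMUSG00000037321, chr17:34187553-34197225), Psmb8 (ENSMUSG00000024338, chr17:34197721-34201454) and Tap2 (ENSMUSG00000024339, chr17:34203527-34216321) follow one another. H2-D1 (ENSMUSG00000073411) lies at chr17:35262730-35267499 and H2-T23 (ENSMUSG00000067212) at chr17:36029773-36032855. B2m (ENSMUSG00000060802) is at chr2:122147686-122153083 and Nlrc5 (ENSMUSG00000074151) at chr8:94434356-94527272. Tap1 and Psmb9 overlap by 212 bases on opposite strands, and B2m and H2-T23 lie over their whole lengths against the antisense genes Patl2 and A930015D03Rik. Tapbp overlaps Zbtb22 by 3422 bases on the same strand, and antisense genes overlap parts of Tapbp, Psmb8, Tap2 and Nlrc5. How the counting used strand is not given in the sources used here, so reads in these overlaps may not be separable. In the last 500 bases of the transcript, where this 3' assay reads, 38.1% of the 50-base windows of H2-T23 and 9.53% of those of H2-D1 also occur in another gene, against 0.443% for H2-K1 and 0% for the other 7, so H2-T23 shares the most sequence of the 10 with other genes.

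The promoters of the classical heavy chains and of B2m share a spaced pair of boxes, shown here because Nlrc5 is known to act through boxes of this kind. RefSeq promoter windows (GRCm38.p6, 250 bases before to 50 after the start) were found for 8 of the 10 genes, all but Tap2 and Nlrc5. For some genes the RefSeq start differs from the GENCODE start given above. The windows of H2-D1, Tapbp, Psmb8 and Psmb9 lie wholly within the GENCODE spans, so the sequence upstream of those spans was not searched. Most of the H2-T23 window also lies within its span. TGACG, the core of the X2 box bound by CREB and ATF factors, stood 20 bases before ATTGG, the core of the Y box bound by NF-Y, in H2-K1, H2-D1 and B2m. The windows of the other 5 genes, the non-classical heavy chain gene H2-T23 among them, did not hold the pair at this spacing. The spacing was chosen after these sequences were seen. Searched on both strands, the pair occurred in 27 of 27025 genes with a window (0.0999%). Capitals mark the 2 boxes, 5′ to 3′ along the gene. The H2-K1 module lies at chr17:34000359-34000388 (minus strand, -41 to -12 from the start), that of H2-D1 at chr17:35262993-35263022 (plus strand, -101 to -72) and that of B2m at chr2:122147609-122147638 (plus strand, -78 to -49).
H2-K1: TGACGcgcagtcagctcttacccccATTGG
H2-D1: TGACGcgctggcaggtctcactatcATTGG
B2m: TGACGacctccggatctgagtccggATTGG

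An interferon-stimulated response element, searched as GAANNGAAA on both strands, occurred in the windows of H2-K1 and H2-D1, and in 8.68% of all genes. The STAT motif TTCNNNGAA occurred in the window of Psmb8 and in 9.55% of all genes. The 100 bases from -110 to -11 of H2-K1 (chr17:34000358-34000457, minus strand) hold the response element on the opposite strand upstream of the spaced boxes, all in capitals.
H2-K1 upstream: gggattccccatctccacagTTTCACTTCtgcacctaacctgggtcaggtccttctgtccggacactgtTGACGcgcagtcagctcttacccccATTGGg
A match is a run of letters and shows no binding in these cells.

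The 4 libraries held between 260346570 and 342107092 UMIs (unique molecular identifiers, 1 per captured RNA molecule), and 63895 of 74057 barcodes were kept as cells, with medians of 13926 to 15764 UMIs. Cells fell into 37 clusters, of which 8 with 12607 cells (19.7%) stayed unnamed and the others made up 24 named classes. Every class name stands for cells that are like that type by RNA markers alone. None of the 10 genes was among the 2000 variable genes that made the clusters. The class named conventional dendritic also had Siglech among its leading genes and scored 3.85 on the mast or basophil list against 4.84 on its own, and the class named pericyte also held smooth muscle markers such as Myh11. The B class included a cluster of 653 shallow cells, with a median UMI count 0.163 times that of their libraries, and the 232 AT1 cells were shallow too (0.241 times). Of the barcode sequences, 416 were kept in more than 1 library. Levels are CPM, the counts of a gene scaled to the total count, from UMIs summed over the cells of a class in a library, scaled by TMM across all classes and libraries, for the 20 classes that reached 20 cells in each library. They are given as mean ± SD over all 4 libraries, treated and vehicle together, and 4 values in a row are BPTES replicates 1 and 2, then DMSO replicates 1 and 2.

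The genes did not have 1 common order of classes, but the classes at the bottom were largely the same. Ciliated cells had the lowest mean of 9 of the 10 genes, the exception being Tap2, and the averaged standardised level of the 10 genes was -2.15 there, against -1.12 in both alveolar type 1 (AT1) cells and pericytes. Conventional dendritic cells (0.963), general capillary endothelium (0.942) and venous endothelium (0.824) stood at the top of that average. Neighbouring classes mostly could not be separated: depending on the gene, the library ranges of 13 to 18 of the 19 neighbouring pairs overlapped.

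**Figure D1:**
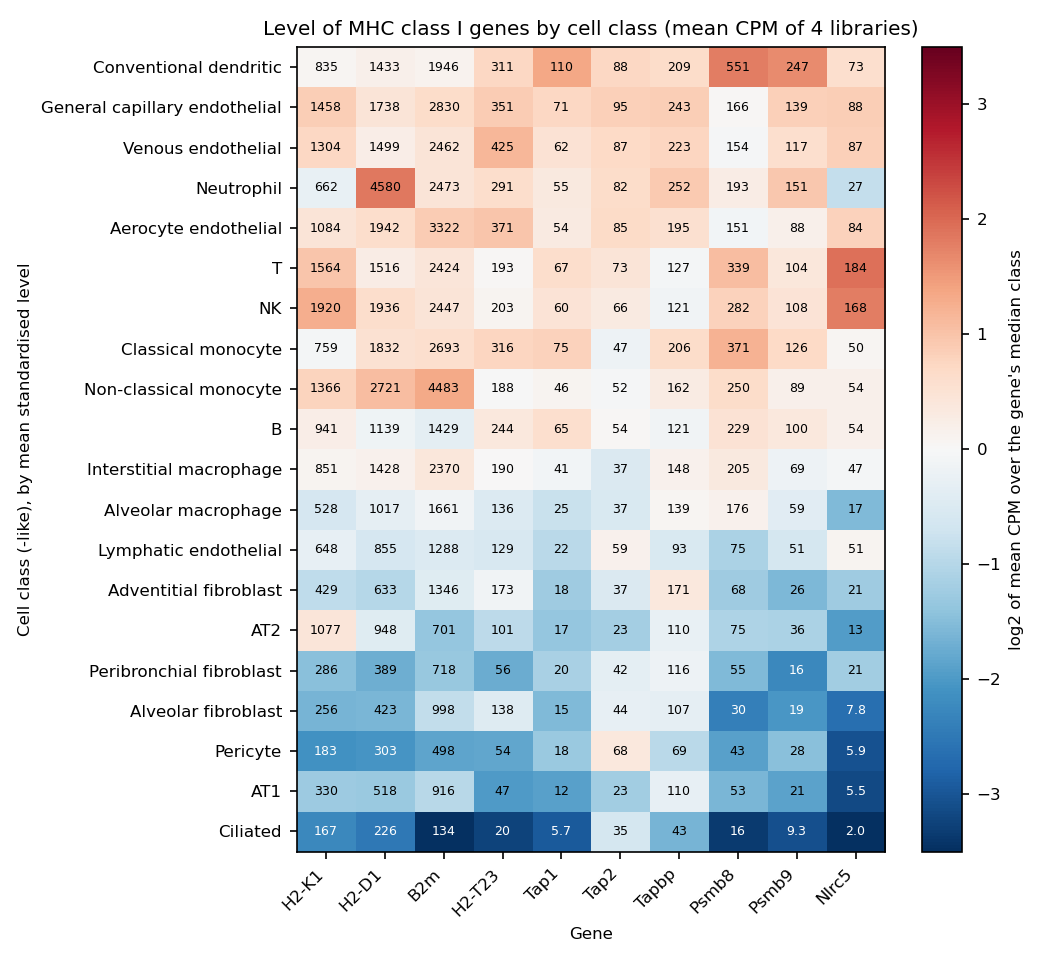
Mean level (CPM over 4 libraries, printed in each field) of the 10 MHC class I genes (columns) in 20 cell classes (rows, ordered by the mean standardised level). Colour is the log2 of the mean over the gene's median class. Ciliated cells, AT1 cells and pericytes form the low end, and conventional dendritic and capillary endothelial cells the high end.

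Among the heavy chains, H2-K1 was highest in NK cells, at 1912 and 1716 CPM under BPTES and 2040 and 2013 CPM under DMSO (1920 ± 147, SD, n = 4). Every NK value exceeded every value in T cells (1564 ± 98.8 CPM), the next class, while T cells overlapped with general capillary endothelium (1458 ± 102 CPM). At the other end, ciliated cells had 155, 166, 148 and 197 CPM (167 ± 21.5), 11.5-fold below NK cells, and overlapped with pericytes (183 ± 15.7 CPM). Among epithelial classes, alveolar type 2 (AT2) cells, which make surfactant, had 1077 ± 93.0 CPM of H2-K1 and stood at rank 7 of 20, whereas AT1 cells had 330 CPM. The 4 mesenchymal classes ranged from 183 to 429 CPM.

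H2-D1 was highest in neutrophils, with 4467 and 4246 CPM under BPTES and 4753 and 4853 CPM under DMSO (4580 ± 276), followed by non-classical monocytes (2721 ± 152 CPM). With TMM these 2 classes overlapped neither with each other nor with the third, aerocyte endothelium (1942 ± 191 CPM). The neutrophil value depended on the scaling, as it did for every gene. Without TMM it was 2356 CPM, and non-classical monocytes were then highest (2446 CPM). Both classes then overlapped with each other, with NK cells (2194 CPM) and with aerocyte endothelium (2148 CPM). A ratio of 2 genes within a library does not depend on the scaling: neutrophils had 6.96 ± 0.564 UMIs of H2-D1 per UMI of H2-K1, against 2.41 ± 0.0253 in classical monocytes, the next class. That ratio was near 1 in NK cells (1.01 ± 0.0105) and T cells (0.969 ± 0.0282), and lowest in AT2 cells (0.883 ± 0.0621).

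**Figure D2:**
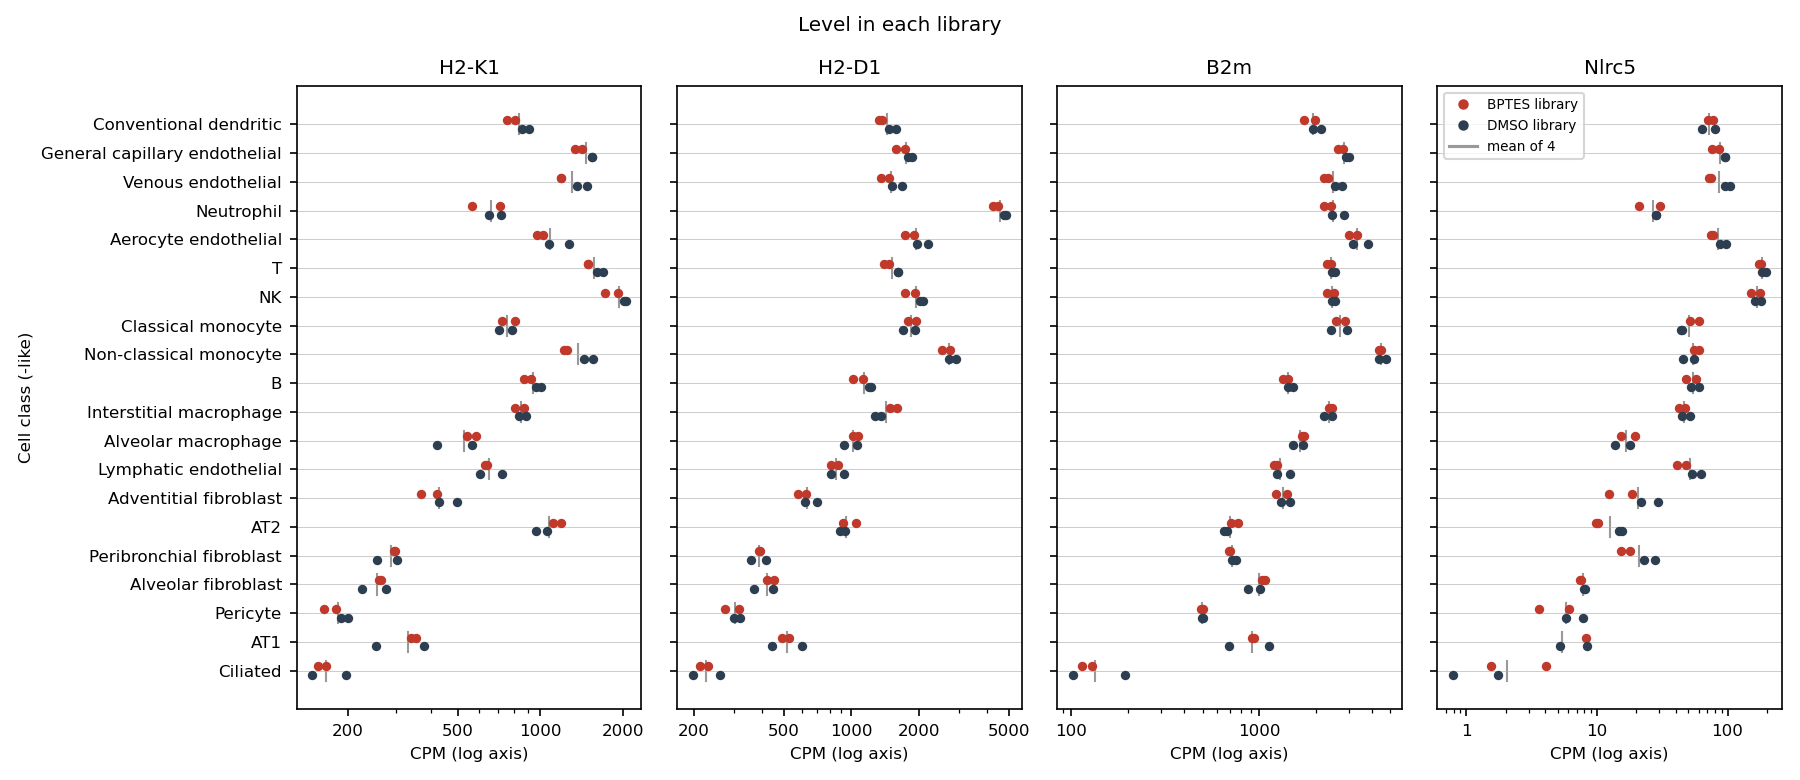
Level of H2-K1, H2-D1, B2m and Nlrc5 (CPM, log axis) in each of 20 cell classes, with 1 point per library and a grey line at the mean of 4; the AT1 value of Nlrc5 in BPTES replicate 1 is 0 and cannot be drawn. Neutrophils stand apart for H2-D1 (4580 CPM) with TMM but not without it, and T and NK cells for Nlrc5 (184 and 168 CPM).

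B2m, the light chain that all class I heavy chains need, was highest in non-classical monocytes, at 4445, 4361, 4378 and 4749 CPM (4483 ± 181), above every value in aerocyte endothelium (3322 ± 348 CPM), although without TMM the 2 classes overlapped (4029 ± 168 and 3672 ± 401 CPM). Ciliated cells had 114, 129, 102 and 193 CPM (134 ± 40.7), below every pericyte value (498 ± 6.35 CPM) and 33.3-fold below non-classical monocytes. Set against the summed UMIs of H2-K1 and H2-D1, B2m was low in ciliated cells (0.338 ± 0.0599) and AT2 cells (0.346 ± 0.00300) and high in alveolar fibroblasts (1.47 ± 0.0532). AT2 cells thus combined rank 7 for H2-K1 with rank 18 of 20 for B2m (701 ± 54.7 CPM). Without TMM these ranks were 9 for H2-K1 (809 CPM) and 19 for B2m (527 CPM).

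H2-T23 was highest in endothelial classes. Venous (425 ± 31.2 CPM), aerocyte (371 ± 26.9 CPM) and general capillary endothelium (351 ± 42.7 CPM) led, with overlapping ranges, while lymphatic endothelium had 129 CPM. Classical monocytes (316 ± 29.4 CPM) came next and overlapped with aerocyte and general capillary endothelium. Conventional dendritic cells had 311 ± 21.6 CPM. The 3 lymphoid classes lay between 193 and 244 CPM and the 3 epithelial classes between 20.2 and 101 CPM.

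The peptide transporter genes differed from each other. Tap1 was highest in conventional dendritic cells, which present antigen to T cells, at 106 and 95.1 CPM under BPTES and 125 and 115 CPM under DMSO (110 ± 12.8), above every value in classical monocytes (75.3 ± 6.12 CPM). It was lowest in ciliated cells (5.68 ± 1.51 CPM, a 19.4-fold range). Tap2 varied 4.14-fold between general capillary endothelium (95.2 ± 6.98 CPM) and AT1 cells (22.98 ± 4.73 CPM), and the ranges of 18 of its 19 neighbouring pairs overlapped. Tapbp varied 5.82-fold, from 252 ± 13.9 CPM in neutrophils to 43.3 ± 5.02 CPM in ciliated cells. These were the narrowest ranges of the 10 genes, and their order depended on the scaling: without TMM Tap2 varied 5.89-fold, with AT2 cells lowest, and Tapbp 5.52-fold. Without TMM the neutrophil value of Tapbp was 130 CPM and general capillary endothelium, at 243 ± 1.34 CPM with TMM, was highest.

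Both immunoproteasome genes were highest in conventional dendritic cells. Psmb8 had 533, 501, 580 and 592 CPM there (551 ± 42.0), above every value in classical monocytes (371 ± 15.2 CPM), and 15.6 ± 3.84 CPM in ciliated cells, 35.4-fold lower. Psmb9 had 239, 224, 262 and 263 CPM (247 ± 18.6), above every value in neutrophils (151 ± 14.6 CPM), and 9.32 ± 2.08 CPM in ciliated cells, 26.5-fold lower. Without TMM neutrophils had 77.5 CPM of Psmb9 and stood at rank 10, and general capillary endothelium was second (151 ± 20.1 CPM). With clusters drawn at resolution 0.5 no conventional dendritic class was named, and classical monocytes were then highest for Tap1 and Psmb8 and neutrophils, with TMM, for Psmb9.

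Each immunoproteasome subunit replaces a constitutive one, so the ratio of their UMIs is given for each class. It compares the RNA of 2 genes, and no protein was measured. Psmb8 over Psmb5 was 4.59 ± 0.323 in conventional dendritic cells, 3.97 ± 0.387 in T cells and 3.40 ± 0.321 in B cells, and was below 1 in every library of alveolar fibroblasts, pericytes and the 3 epithelial classes, down to 0.108 ± 0.0208 in ciliated cells. The ratio of Psmb9 to Psmb6 was highest in neutrophils (3.74 ± 0.735), where a library held as few as 88 UMIs of Psmb6. That ratio was lowest in ciliated cells (0.0586 ± 0.0159), where Psmb6 itself had its highest level (161 ± 11.0 CPM). Psmb10 over Psmb7, the third pair, had another order, led by general capillary (1.66 ± 0.140) and venous endothelium (1.62 ± 0.0900), with neutrophils next to last (0.235 ± 0.0761).

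**Figure D3:**
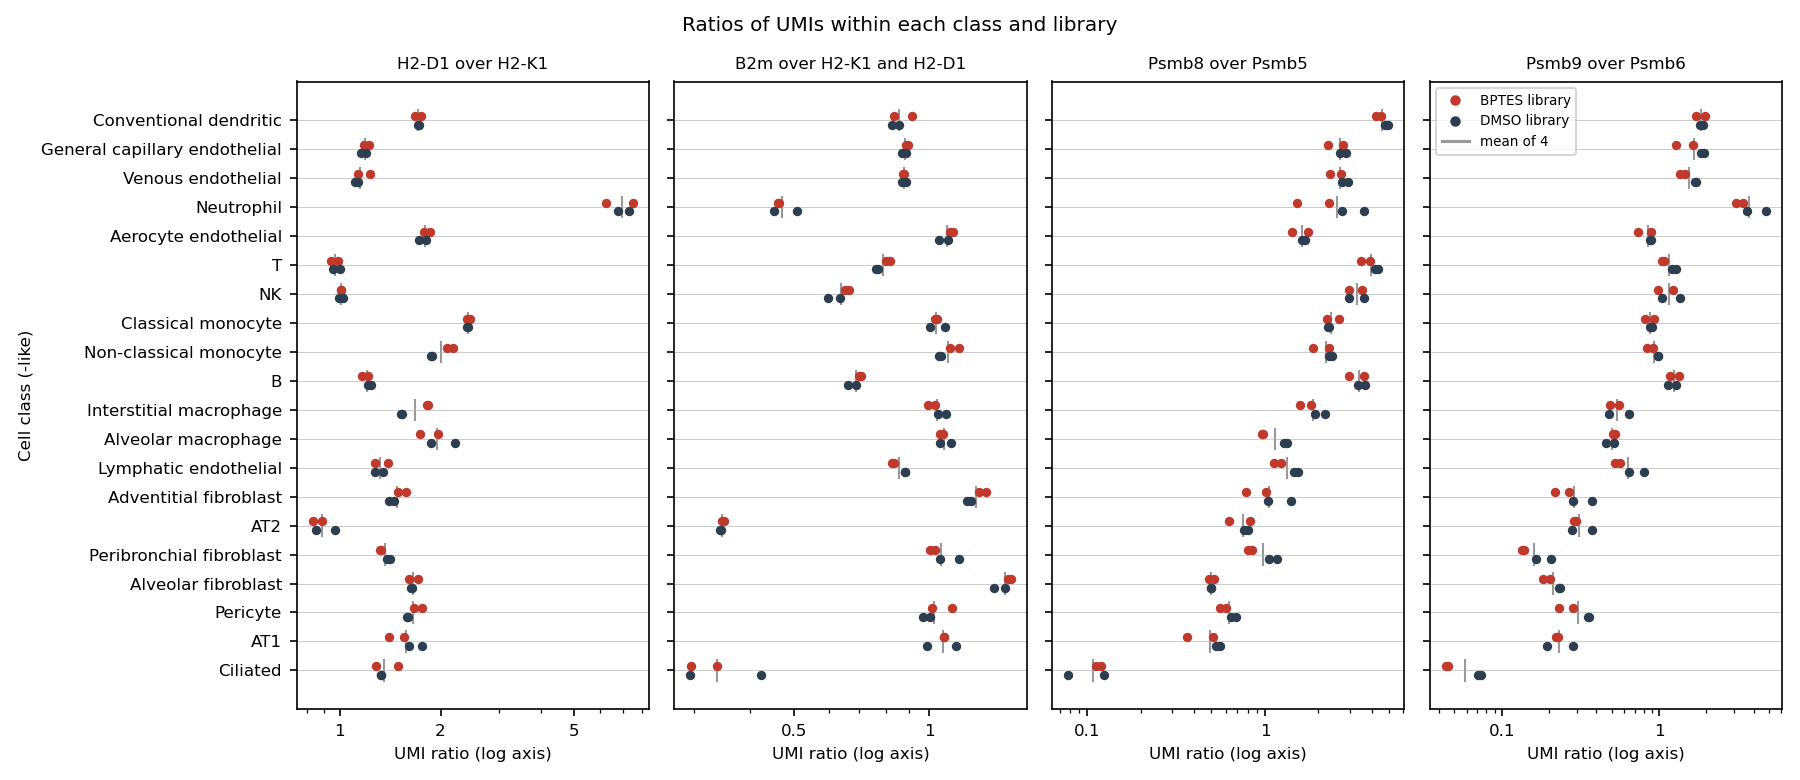
Ratios of UMIs (log axis) of H2-D1 over H2-K1, B2m over the sum of H2-K1 and H2-D1, Psmb8 over Psmb5 and Psmb9 over Psmb6, in 20 cell classes, with 1 point per library and a grey line at the mean of 4. Neutrophils stand apart in H2-D1 over H2-K1 (6.96), AT2 and ciliated cells in the B2m ratio (0.346 and 0.338), and ciliated cells in both proteasome ratios.

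Nlrc5 had the widest range. T cells had 182, 175, 183 and 198 CPM (184 ± 9.90) and NK cells 152, 177, 181 and 163 CPM (168 ± 13.2). These 2 classes overlapped with each other and lay above every value of general capillary endothelium, the third class (88.3 ± 9.03 CPM). Alveolar fibroblasts (7.77 CPM), pericytes (5.85 CPM), AT1 cells (5.46 CPM) and ciliated cells (2.04 CPM) were at the low end, the last resting on 2 to 15 UMIs per library. Neutrophils, high for H2-D1, had 27.1 CPM of Nlrc5.

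As a description over the 20 class means of log2(CPM + 1), which share libraries and depth, Tap1 and Psmb9 had the most similar pattern (Pearson r = 0.96), followed by Tap1 with Psmb8 (0.93) and Psmb8 with Psmb9 (0.93). Tap2, next to Psmb8 on chromosome 17, was less similar to these 3 genes (0.72 with Tap1, 0.69 with Psmb9 and 0.50 with Psmb8). Nlrc5 was most similar to H2-K1 (0.89), and the least similar pair was H2-K1 with Tap2 (0.44). Of 13976 other genes with at least 10 CPM in some class, the 10 whose pattern was most like the average of the members were Dtx3l (r = 0.915), Slc25a30, Mapk1ip1l, Osbpl8, Mis18a, Il4ra, H2-T22 (0.891), Rnf115, Wasf2 and Setdb2 (0.873). H2-T22, another non-classical class I gene, is the only one of these on the fixed list of pathway genes.

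Levels also differed among clusters of 1 class. With clusters drawn at resolution 2, 7 clusters scored highest on the general capillary markers, of which 2 kept that name, one led by the interferon-stimulated genes Ifit1, Iigp1 and Ifit3 (1781 cells) and a larger one led by Sox11, Kank4 and Kit (4083 cells). Nlrc5 was 162, 181, 167 and 196 CPM in the first (177 ± 15.2) and 61.3, 50.4, 75.9 and 66.6 CPM in the second (63.6 ± 10.6), with no overlap. Tap1 was 110 ± 10.2 against 65.0 ± 5.69 CPM, again with no overlap, while H2-K1 was 1547 ± 121 against 1539 ± 82.2 CPM. The other 5 clusters stayed unnamed, and their mean levels ranged from 11.8 to 107 CPM for Nlrc5 and from 32.4 to 79.2 CPM for Tap1, below the interferon-led cluster in every library; the lowest values of both are those of a shallow cluster, with a median UMI count 0.181 times that of its libraries. For Nlrc5, 4 of the 5 had means between those of the 2 named clusters (71.6 to 107 CPM). The clusters were drawn on these same cells, so no test is given. The interferon-led cluster made up 28.6% and 25.5% of the cells in the 2 named clusters under BPTES and 28.6% and 34.5% under DMSO.

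Alveolar fibroblasts held 2 clusters, one led by Fat3 and Slc7a10 and a smaller one led by Olfr1033, Brinp1 and C4b. The name of the smaller cluster is less certain. It scored 1.631 on the alveolar fibroblast list, against 3.595 for the other cluster, and had no marker of that list among its leading genes. Its next list, adventitial fibroblast, scored 0.328. The smaller cluster had more H2-K1 (371 ± 36.3 against 196 ± 16.3 CPM), B2m (1476 ± 99.8 against 752 ± 57.0 CPM) and Nlrc5 (13.5 ± 1.69 against 4.99 ± 0.723 CPM), without overlap of libraries. Among T cells, a cluster led by Il23r, Cd163l1 and Trdc had less Psmb9 (49.9 ± 11.0 CPM) and Nlrc5 (115 ± 15.6 CPM) than a cluster led by Ccl5 and Cd8b1 (132 ± 11.9 and 224 ± 2.15 CPM).

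The comparison of BPTES with DMSO asked whether the treatment changed these genes in any class. It covered the 18 classes that reached 50 cells in each library, which leaves out AT1 cells and alveolar macrophages, by edgeR's quasi-likelihood test on summed counts with Benjamini-Hochberg adjustment over all genes of a class. Nlrc5 in ciliated cells did not pass the filter on low counts. Of the 179 pairs of gene and class tested, 0 had an adjusted p under 0.05, where 0.168% of all 225381 gene and class pairs did. At an unadjusted p under 0.05, 30 pairs were lower and 3 higher under BPTES, against 6.46% lower and 6.22% higher of all pairs. DESeq2 called 1 pair, H2-K1 in non-classical monocytes (log2 fold change -0.30, adjusted p = 0.0361), and 1.32% of all pairs. Settings that called more pairs of these genes also called more of all pairs: with no filter on low counts 9 of 180 were called, against 3.02% of all pairs (among them Nlrc5 in AT2 cells, H2-T23 in lymphatic endothelium, Psmb9 in T cells, Nlrc5 in classical monocytes, and Tap1 and Nlrc5 in venous endothelium, whose values follow, with adjusted p in that setting between 0.0013 and 0.0457), and with the replicate number as a block 2, against 1.24%. Without BPTES replicate 1 the count was 6, against 2.06%, and without DMSO replicate 1 it was 2, against 0.455%; in such fits 1 group has a single library, which is assumed to vary like the other group, and only that group gives the spread. No pair of the 10 genes was called without BPTES replicate 2 (0.66% of all pairs were), without DMSO replicate 2 (0.367%), at resolution 2 (0.332%) or with doublets kept (0.0621%). The values that follow are a description.

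Most fold changes were small and below 0. In 133 of the 179 pairs the log2 fold change of BPTES over DMSO was below 0, against 50.5% of all pairs, and the median was -0.10, against -0.0025 over all genes. Both BPTES libraries lay below both DMSO libraries in 80 pairs and above them in 13, where 22.5% and 22.2% of all pairs did so. The classes come from the same 4 libraries and the genes of a class from the same cells, so these pairs are not independent. Other scalings gave 131 pairs below 0 (no TMM) and 139 (upper quartile). Without BPTES replicate 2, 109 of 180 pairs were below 0.

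By gene, the log2 fold change was below 0 in 17 of 18 classes for Psmb9 (median -0.17), 15 of 18 for Tap1 (median -0.16) and 14 of 17 for Nlrc5 (median -0.15). H2-K1 (median -0.14), H2-D1 (median -0.11), B2m (median -0.07) and Tap2 (median -0.09) were below 0 in 14 of 18 classes each. H2-T23 and Psmb8 were below 0 in 11 of 18. Tapbp was evenly divided, 9 classes below and 9 above.

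By class, all 10 genes were below 0 in T cells, lymphatic endothelium and adventitial fibroblasts, where 50.2%, 49.3% and 50.5% of all genes were. The make-up of adventitial fibroblasts also differed between libraries, mostly in DMSO replicate 1. The cluster led by Adh7 and Smoc2 was 41.3% and 38.7% of the class under BPTES and 24.4% and 36.6% under DMSO. That cluster had less H2-K1 (299 ± 20.7 CPM) than the cluster led by Scara5 (449 ± 57.2 CPM). Within each of the 2 clusters H2-K1 overlapped between groups. In the whole class it overlapped too when scaled within the class (436 and 361 CPM under BPTES, 492 and 430 CPM under DMSO). Scaled across classes it was just apart (422 and 367 against 499 and 429 CPM). The part of this make-up was not tested. In general capillary endothelium, venous endothelium, B cells, neutrophils and non-classical monocytes 9 of 10 genes were below 0, against 50.9%, 50.7%, 50.5%, 49.6% and 50.7% of all genes. The shallow cluster of B cells, with 293 ± 78.0 CPM of H2-K1 against 1035 ± 72.1 CPM in the other B cluster, was 12.3% and 11.9% of the class under BPTES and 17.3% and 15.5% under DMSO; its part was not tested. Over the 4 endothelial classes, 36 of 40 fold changes were below 0, with a median of -0.16. Over all genes of these classes 25842 of 51181 were, with a median of -0.0029. The exceptions were alveolar fibroblasts and AT2 cells, each with 6 of 10 genes above 0 (52.0% and 50.4% of all genes were below), classical monocytes, also 6 of 10 (50.5% below), and interstitial macrophages, with 7 of 10 (50.3% below).

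**Figure D4:**
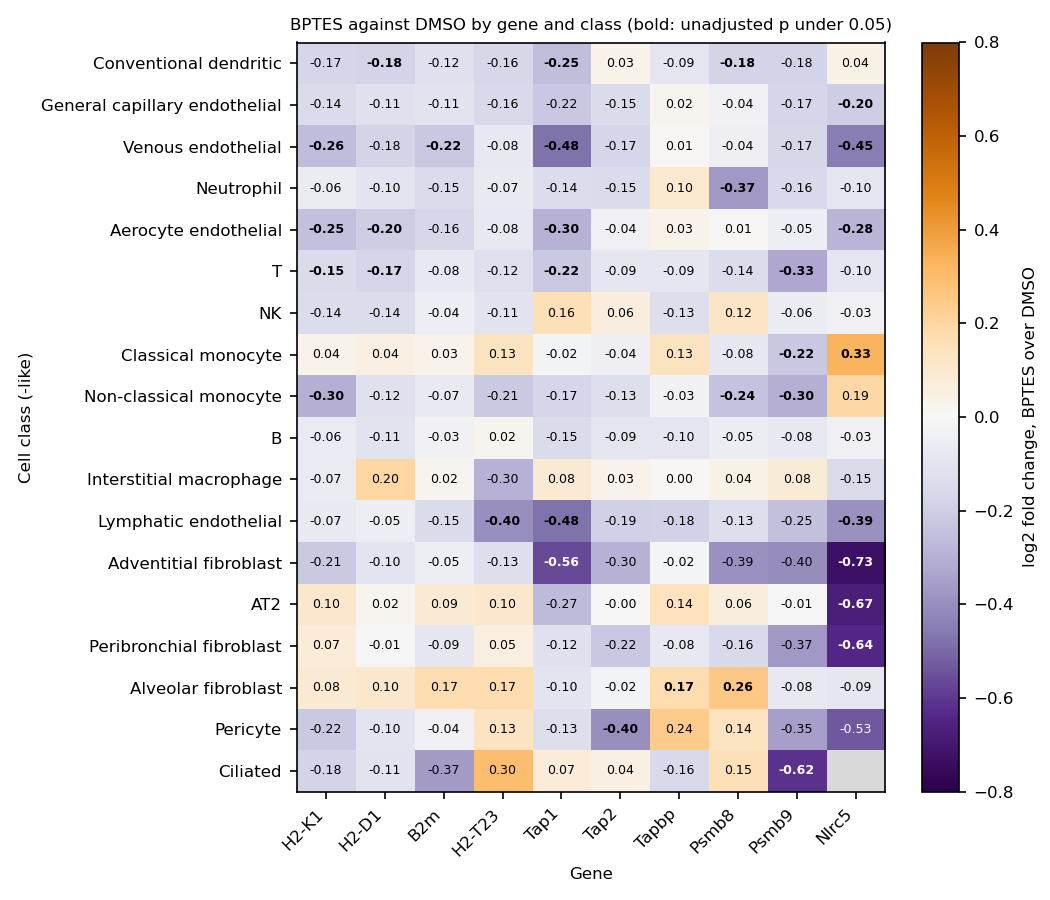
Log2 fold change of BPTES over DMSO for the 10 genes (columns) in 18 cell classes (rows), printed in each field; bold marks an unadjusted p under 0.05 and grey the 1 pair not tested. Most fields are below 0 (133 of 179), alveolar fibroblasts being among the exceptions; no pair had an adjusted p under 0.05.

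For each gene the class with the smallest adjusted p is given with its values, now as CPM scaled within the class, with edgeR's adjusted p. Nlrc5 in AT2 cells was 7.44 and 7.24 CPM under BPTES and 12.3 and 11.2 CPM under DMSO, the groups being apart (log2 fold change -0.67, SE 0.154, adjusted p = 0.109). That AT2 level is 6.83% of the T cell level, and the summed level of the 6 T cell markers in AT2 cells was 9.41 and 1.32 CPM under BPTES and 9.94 and 16.0 CPM under DMSO, against 3483 CPM in T cells, with no marker at 0 in all libraries. The part of T cell RNA in this difference was not tested.

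H2-T23 in lymphatic endothelium was 138 and 135 CPM under BPTES and 171 and 190 CPM under DMSO (log2 fold change -0.40, SE 0.103, adjusted p = 0.126). The summed level of the 6 venous markers in this class was 616 and 695 CPM under BPTES and 845 and 705 CPM under DMSO, against 4678 CPM in venous endothelium, the class highest for H2-T23, and its part was not tested. Venous endothelium, where neutrophils and lymphocytes leave the blood in many tissues, gave the pair for Tap1 and H2-K1. Tap1 was 65.2 and 50.2 CPM under BPTES and 81.5 and 79.7 CPM under DMSO (log2 fold change -0.48, SE 0.123, adjusted p = 0.203). H2-K1 there was 1339 and 1307 against 1523 and 1638 CPM (log2 fold change -0.26, SE 0.0850, adjusted p = 0.271). In both genes the groups did not overlap. The 6 NK markers, from the class highest for H2-K1, summed to 1.87 and 1.12 CPM in venous endothelium under BPTES and 2.25 and 1.99 CPM under DMSO, against 9258 CPM in NK cells. The 6 conventional dendritic markers, from the class highest for Tap1, summed to 7.67 and 10.3 CPM in venous endothelium under BPTES and 14.5 and 11.4 CPM under DMSO, with Clec10a at 0, against 1206 CPM in that class; their part was not tested. Nlrc5 in the same class was 81.0 and 82.5 against 107 and 116 CPM (log2 fold change -0.45, adjusted p = 0.140). General capillary endothelium gave the pair for Tap2, with 99.5 and 96.4 against 107 and 110 CPM (log2 fold change -0.15, SE 0.0644, adjusted p = 0.260).

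T cells gave the pairs for Psmb9 and H2-D1. Psmb9 was 93.3 and 89.1 CPM under BPTES and 110 and 119 CPM under DMSO (log2 fold change -0.33, SE 0.0703, adjusted p = 0.199). H2-D1 was 1447 and 1383 against 1603 and 1583 CPM (log2 fold change -0.17, SE 0.0572, adjusted p = 0.333). The 6 neutrophil markers, from the class highest for H2-D1, summed to 24.2 and 31.9 CPM in T cells under BPTES and 52.0 and 45.1 CPM under DMSO, against 191450 CPM in neutrophils. Those of conventional dendritic cells, the class highest for Psmb9, summed to 342 and 400 CPM under BPTES and 358 and 380 CPM under DMSO. Of these 6 markers, 4 were detected in every library. The share of each marker in the sum, Ccr7 among them, was not looked at, so the sum need not be dendritic cell RNA. The part of either marker set was not tested. The make-up of the class moved with the groups: the cluster led by Ccl5 and Cd8b1, rich in Psmb9, was 33.9% and 34.0% of T cells under BPTES and 43.0% and 60.1% under DMSO, and the cluster led by Il23r, poor in Psmb9, was 29.1% and 27.5% against 25.1% and 13.5%. The part of this make-up was not tested. Within the 3 T cell clusters, Psmb9 under BPTES and DMSO was 124 and 120 against 140 and 144 CPM in the Ccl5 cluster, 107 and 104 against 114 and 112 CPM in the cluster led by Ctla4 and Lef1, and 42.3 and 38.6 against 59.6 and 59.1 CPM in the Il23r cluster. These levels are scaled across clusters.

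Alveolar fibroblasts, the cells around the alveoli that make matrix, gave the pairs in the other direction. Psmb8 was 33.4 and 32.5 CPM under BPTES and 26.8 and 28.3 CPM under DMSO (log2 fold change 0.26, SE 0.0691, adjusted p = 0.118). Tapbp was 110 and 115 against 96.8 and 103 CPM (log2 fold change 0.17, adjusted p = 0.219), and B2m 1074 and 1026 against 870 and 998 CPM (log2 fold change 0.17, adjusted p = 0.311). The cluster led by Olfr1033 and Brinp1 has the higher class I levels and, as given above, the less certain name. It was 30.4% and 34.4% of the class under BPTES and 20.2% and 23.05% under DMSO. Within that cluster Psmb8 was 44.6 and 45.4 against 42.8 and 46.7 CPM, the groups overlapping, and within the cluster led by Fat3 it was 26.0 and 23.01 against 21.0 and 21.6 CPM, the groups being apart. B2m overlapped between groups within both clusters. Tapbp did not: it was 132 and 141 against 128 and 131 CPM in the cluster led by Olfr1033 and 94.0 and 93.8 against 83.9 and 92.2 CPM in that led by Fat3.

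**Figure D5:**
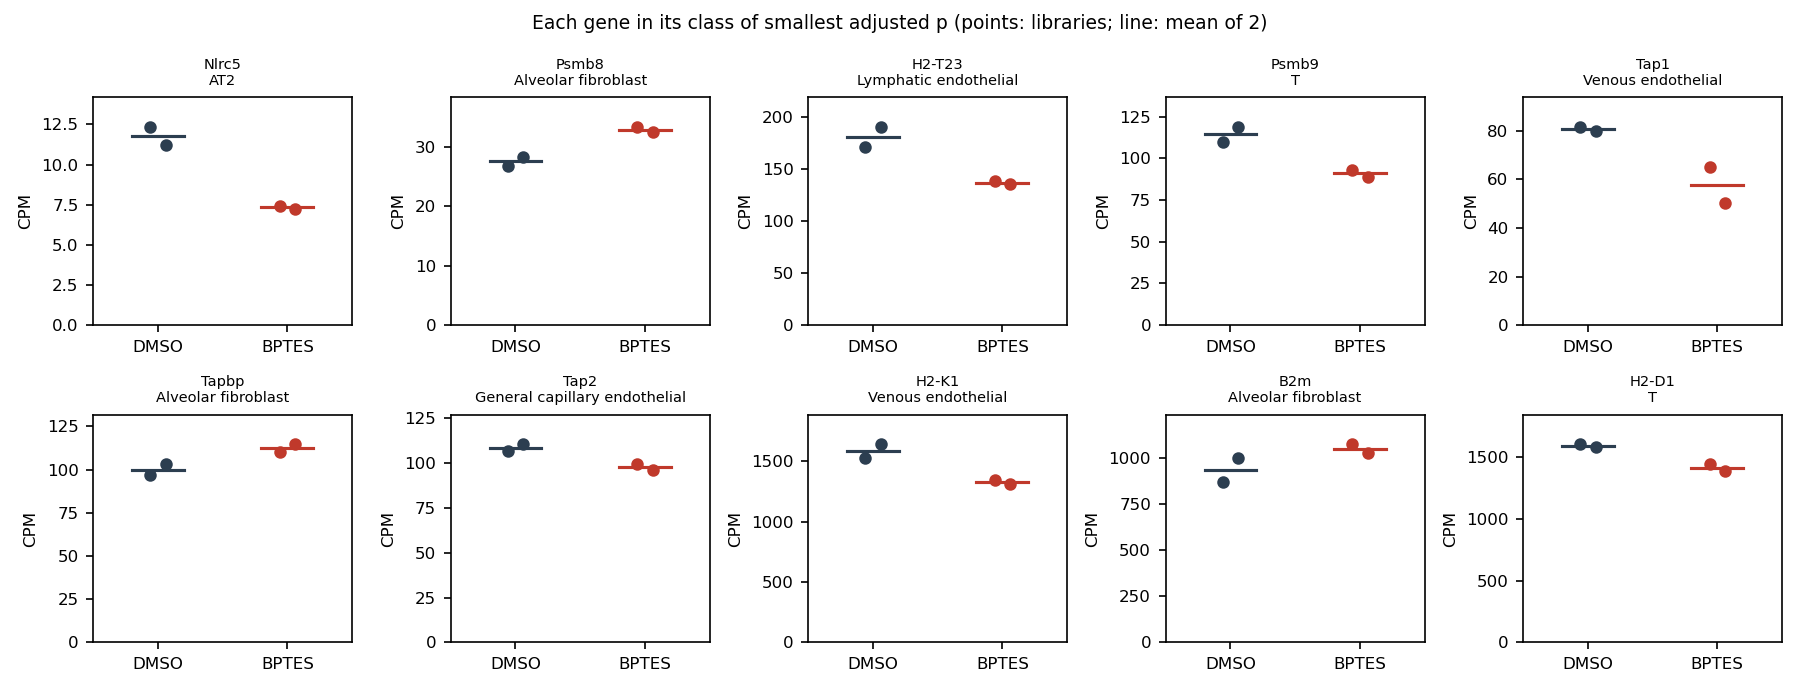
Level (CPM scaled within the class, axis from 0) of each gene in the class where its adjusted p was smallest, with points for the 2 libraries of each group and a line at their mean. The classes were picked for their small p, so groups that do not overlap say little here (22.5% of all pairs were apart and lower, 22.2% apart and higher); the 3 alveolar fibroblast panels are higher under BPTES and the other 7 lower, and no adjusted p was under 0.05 (0.109 to 0.333).

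Whether classes differed in response was tested for 2 genes that moved in opposite directions at an unadjusted p under 0.05, with edgeR, the library as a block and a class by treatment term, a test added after the data were seen. For each gene the 2 classes were those with the smallest p in each direction, picked on these same counts. The differences are thus likely too large and their p-values too small. The fold change of Psmb8 in alveolar fibroblasts was 0.48 (log2, SE 0.115) above that in non-classical monocytes, with an adjusted p of 0.199. That of Nlrc5 in classical monocytes (44.7 and 51.7 CPM under BPTES, 38.2 and 38.9 CPM under DMSO) exceeded that in venous endothelium by 0.75 (SE 0.115, adjusted p = 0.0719). Neither difference passed the threshold.

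Of 23 other genes of the class I pathway, chosen as heavy chains, proteasome subunits, loading factors and regulators, 3 of 407 pairs of gene and class were called by edgeR, all lower under BPTES, against 0.168% of all pairs. At an unadjusted p under 0.05, 51 pairs were lower and 26 higher of the 407, where 6.46% and 6.22% of all pairs were, and the median log2 fold change was -0.01. Irf1, an interferon-induced activator of class I and immunoproteasome genes, fell in lymphatic endothelium from 328 and 339 CPM under DMSO to 226 and 218 CPM under BPTES (log2 fold change -0.58, SE 0.0955, adjusted p = 0.0198). Venous endothelium has the most Irf1, and its 6 markers in lymphatic endothelium were 616 and 695 CPM under BPTES and 845 and 705 CPM under DMSO, as given above for H2-T23; their part was not tested. Irf1 also fell in alveolar fibroblasts, from 218 and 214 to 144 and 150 CPM (log2 fold change -0.56, SE 0.0678, adjusted p = 0.0368), where 6 of the 10 members were above 0 and the venous markers summed to 404 and 404 CPM under BPTES and 344 and 393 CPM under DMSO. H2-Q7, which encodes the non-classical heavy chain Qa-2, fell in non-classical monocytes from 111 and 114 to 60.8 and 65.8 CPM (log2 fold change -0.83, SE 0.0804, adjusted p = 0.0375). NK cells have the most H2-Q7 (804 ± 52.9 CPM), and the 6 NK markers summed to 28.6 and 15.9 CPM under BPTES and 89.7 and 17.8 CPM under DMSO in these monocytes, against 9258 CPM in NK cells; their part was not tested. All 3 calls were lost when DMSO replicate 1 was left out (adjusted p = 0.124, 0.282 and 0.158 in this order) and when DMSO replicate 2 was (0.0519, 0.0756 and 0.0841), and that of H2-Q7 also without either BPTES library (0.0944 and 0.107). Over the 4 fits that leave out 1 library each, the log2 fold changes were -0.55 to -0.61 for Irf1 in lymphatic endothelium, -0.52 to -0.58 for Irf1 in alveolar fibroblasts and -0.78 to -0.89 for H2-Q7. With doublets kept no pair was called (0.0617, 0.131 and 0.203).

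H2-Q7 was below 0 in 18 of 18 classes (median log2 fold change -0.29) and H2-Q6, a near copy that can share reads with it, in 17 of 17 (median -0.32). In general capillary endothelium, H2-Q7 was 463 and 403 CPM under BPTES and 520 and 512 CPM under DMSO, and in T cells 559 and 551 against 656 and 715 CPM, the groups being apart in both. Irf1 was below 0 in 14 of 18 classes (median -0.25). The constitutive proteasome subunit genes Psmb5, Psmb6 and Psmb7 were below 0 in 3, 5 and 7 of 18 classes (medians 0.12, 0.07 and 0.04). Of the genes of peptide loading and trimming, Pdia3, a partner of tapasin, was below 0 in 1 of 18 (median 0.11), the chaperone genes Calr and Canx in 2 and 3 (medians 0.14 and 0.13), the peptidase gene Erap1 in 7 (median 0.03) and Tapbpl, a relative of tapasin, in 11 (median -0.06). Apart from the 3 calls above, none of these passed the test in any class.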

How the data were processed

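The deposited files were filtered gene by barcode matrices of raw UMI counts, 1 per library, made by the authors with Cell Ranger 8.0.1 and mm10, per the submitters' processing notes; the annotation release is not given in the sources used here. Barcodes were required to hold 500 genes or more, 1000 UMIs or more and no more than 10% mitochondrial UMIs, and probable doublets were removed by a simulated-doublet score (0.4% per 1000 barcodes). Cells were clustered (2000 variable genes, 40 principal components, 15 neighbours, Leiden in igraph 0.11.9, resolution 1, no correction between libraries) and clusters named from marker lists of 28 classes; a name was withheld for a score under 1.5, fewer than 3 detected markers, shallow cells (a median UMI count under 1/3 of their libraries') with no marker of the name among the 10 leading genes, more leading genes of another class than of its own, or a second class also scoring 1.5 or more when its own markers did not outnumber those of other classes among the leading genes.

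Deposited counts were summed per library and class. Levels are CPM computed from these sums with edgeR 4.0.16 (TMM) in R 4.3.3. BPTES and DMSO libraries were compared per class with edgeR's quasi-likelihood test (filterByExpr, TMM, 2 against 2 libraries, two-sided, no block), with Benjamini-Hochberg adjustment per class and a threshold of 0.05. The scripts were tested on simulated counts. Genes named are the 10 members, each with values in the class of its smallest adjusted p, pathway genes called in any class, the proteasome ratios, and the 10 most similar genes; Nlrc5 in venous endothelium and classical monocytes, H2-Q6, H2-Q7 beyond its call, the loading and constitutive genes and the clusters set side by side were chosen after their values were seen. The members and lists were chosen with earlier results of these data known. Alternatives were other scalings, DESeq2 1.42.0, no filter, a replicate block, other clusterings and doublet or mitochondrial limits, and each library left out.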

Additional observations from a re-analysis of the deposited data

How the results depend on the processing

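Of the 10 genes, edgeR called 0 pairs in the main analysis, 9 with no filter on low counts (where 3.02% of all pairs were called), and 0 to 6 with 1 library left out (6 without BPTES replicate 1, 2 without DMSO replicate 1); DESeq2 called 1. Of the other pathway genes it called 3 pairs, where 0.168% of all pairs were called, 29 with no filter (3.02%), 13 with DESeq2 (1.32%), 7 at resolution 2 (0.332%), 0 with doublets kept (0.0621%), and 0 to 22 with 1 library left out (22 without BPTES replicate 1, against 2.06%, 5 without BPTES replicate 2, against 0.66%, and 0 without DMSO replicate 2, against 0.367%). No direction of a named pair reversed in these settings. With the replicate number as a block, 2 pairs of the 10 genes (Tap1 and Nlrc5 in venous endothelium, adjusted p = 0.0323 and 0.0240) and 9 of the other genes were called, against 1.24% of all pairs; the labels do not pair the libraries, and same-numbered libraries deviated together with correlations of -0.15 to 0.38 over the classes. The call of H2-Q7 in non-classical monocytes was also lost with the block (adjusted p = 0.0586) and when clustering left out MHC genes (0.0533), and that of Irf1 in alveolar fibroblasts at resolution 0.5 (0.0530). The causes were not tested. The highest class of 7 of 10 genes was the same without TMM and at resolution 0.5, and of all 10 at resolution 2 and when clustering left out MHC genes. Counts were also simulated with 2 libraries a group, with the same fixed dispersion for every gene and no low-count genes among those changed. The real libraries can vary otherwise, so the recovered shares do not give the power of the real comparison. In these counts edgeR recovered 70% of genes raised 1.5-fold in general capillary endothelium (14900 genes tested), 44% in T cells (13489) and 38% in ciliated cells (12113). It recovered 94%, 90% and 88% of those raised 2-fold, and 82%, 82% and 86% of those lowered to 0.5-fold. Smaller changes were not simulated. Nlrc5 in ciliated and AT1 cells rests on at most 15 UMIs per library.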
